A study of Arabidopsis thaliana with 67 samples.

Results

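The vegetative nucleus of pollen held RNA on 341 of the 31189 transposable element (TE) rows of the table at a level that set them apart from sperm. These rows were chosen by 2 measured values: a mean count of at least 10 over the 15 vegetative (vn) libraries, and a mean level over them, in counts scaled so that all rows of a library sum to 1000000 (CPM), at least 4 times the mean over the 12 sperm libraries. Of the 506 TE rows that reached the count minimum, 67.4% also reached the ratio, while 21427 TE rows had no count in any vegetative library. Vegetative against sperm is therefore a description here, with no test. The same ratio was reached by 39.6% of the 7432 gene rows at that count minimum (41.4% of 7938 features of either kind), so a ratio of 4 is common between these nuclei.

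A TE is a stretch of DNA that can move or copy itself within the genome, and plants keep most of them silent through DNA methylation, chromatin remodelling and small RNAs. In a pollen grain, the large vegetative cell grows the pollen tube and contributes no DNA to the next generation, while the 2 sperm cells do. The vegetative nucleus is known for loosened chromatin, loss of the remodeller DDM1 and active DNA demethylation by DME, together with TE transcription and small RNAs made from it. AGO5 and AGO9 are ARGONAUTE proteins, which bind small RNAs and guide them to matching RNA or DNA. The series asked what such proteins do in the shoot meristem and also sampled pollen.

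All plants were Arabidopsis thaliana of ecotype Col-0, in 4 genotypes: ago5, ago9, a line with the label ago59 (taken to carry both mutations) and wild type. The vegetative group had 3 ago5, 4 ago9, 4 ago59 and 4 wild-type libraries from pollen of plants of 35 d, and the sperm group had 3 of each. Seedlings of 7 d gave 27 stem-cell libraries (8 ago5, 7 ago9, 7 ago59 and 5 wild type), sorted for an mCherry reporter, and 13 non-stem libraries (3, 4, 3 and 3), sorted by the DNA stain DAPI alone, with 100 nuclei each. The labels do not say whether replicates came from separate plants, so p-values measure the spread between these libraries, which may be technical. Every wild-type pollen value rests on 7 table columns matched to their samples by elimination.

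Vegetative libraries held 7.69 to 10.19 M counts and sperm libraries 7.16 to 9.49 M, against 1.41 to 6.24 M in seedlings. The summed level of 7 vegetative-cell genes was 28847 to 38381 CPM in vegetative and 5232 to 11582 CPM in sperm libraries, while that of 6 sperm genes was 25.3 to 52.1 CPM in vegetative and 1758 to 2358 CPM in sperm libraries, so both groups followed their labels. VGD1 alone, a pollen pectin methylesterase, was 3.93 times higher in vegetative nuclei. AGO9 had 0.633 ± 0.440 CPM in ago9, 1.07 ± 0.514 CPM in ago59 and 8.09 ± 4.03 CPM in wild-type vegetative nuclei (SD, n = 4 each) and fell in both mutants (log2 fold change -3.69 ± 0.48 in ago9, adjusted p = 0.00107, and -3.15 ± 0.45 in ago59, adjusted p = 0.00335). AGO9 was far higher in wild-type sperm, at 743 ± 35.0 CPM (SD, n = 3). It had 36.9 ± 9.99 CPM in ago9 sperm and 46.7 ± 13.5 CPM in ago59 sperm (n = 3 each). The part of sperm RNA in the vegetative AGO9 level was not tested. AGO5 averaged under 1 CPM in vegetative nuclei of every genotype and was not called there, but it fell in sperm of ago5 (2.30 ± 1.09 CPM) and ago59 (3.03 ± 0.814 CPM), against 41.4 ± 7.51 CPM in wild-type sperm (adjusted p = 1.18e-09 and 1.66e-09). One library stood apart in its other TE rows: ago5 vegetative replicate 4 had 8738 CPM on them, against 3993 to 5711 CPM in the other 14 vegetative libraries. Its organelle share of counts was 0.208%, against 0.0155% to 0.0617% in those 14 and 1.60% to 3.51% in sperm libraries. It also had the highest vegetative sum of the 6 sperm genes (52.1 CPM), with 48.2 CPM in ago9 replicate 2 next. The part of sperm RNA in this library was not tested. Wild-type vegetative replicate 1 had counts on 20477 features, against 15109 to 18257 in the other 14 vegetative libraries. It also had the highest sum of the 7 vegetative-cell genes (38381 CPM), and it is a reference library in the comparisons with the wild type.

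The 341 rows summed to 10911 ± 1495 CPM in vegetative libraries (SD, n = 15), which is 69.2% ± 4.57 of all TE counts there. They summed to 542 ± 100.3 CPM in sperm (n = 12), which is 0.369% of sperm TE counts, since all TE rows together took 131370 to 174572 CPM of a sperm library. In sorted nuclei, fewer nuclei of a type and less RNA per nucleus cannot be told apart. The levels were steeply graded. The mean vegetative level ran from 1.14 to 3742 CPM with a median of 4.32 CPM. The first 3 rows held 49.7% of the sum, the first 4 held 54.3% and 80 held 90%.

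**Figure D1:**
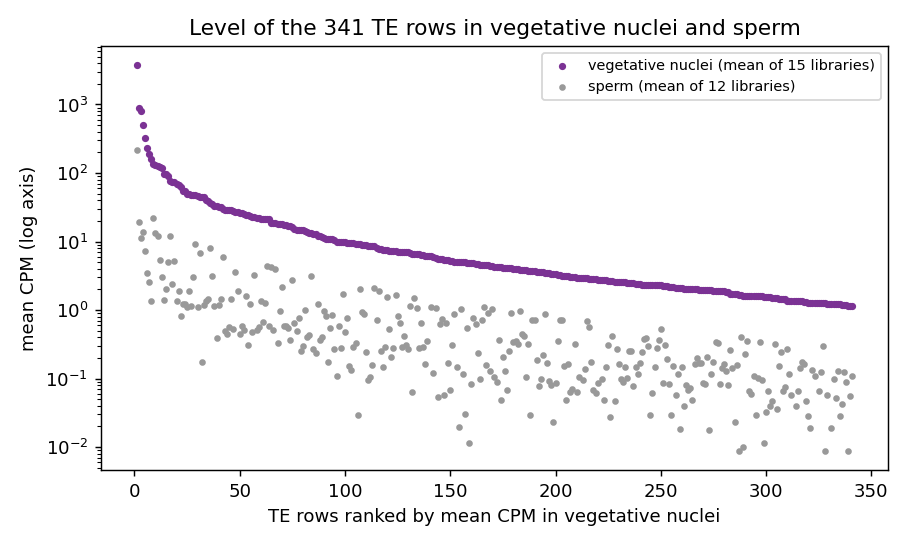
Mean level of each chosen TE row in vegetative nuclei (purple, 15 libraries) and in sperm (grey, 12 libraries), on a log axis in CPM, ordered by the vegetative level. The vegetative curve drops from 3742 to 1.14 CPM, and the sperm points lie below it at every rank, as the choice of rows requires. The 6 rows with no sperm count have no grey point.

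A single row dominated. AT5TE35975 on chromosome 5 had 3742 CPM over the vegetative libraries, 34.3% of the whole sum, and 215 CPM in sperm, a ratio of 17.4. It had 3414, 3601 and 3662 CPM in the ago5 libraries, 3594, 3600, 3832 and 4110 CPM in ago9, 3512, 3617, 4306 and 4761 CPM in ago59, and 3072, 3236, 3904 and 3908 CPM in wild type. The 4 genotypes overlapped. In 40 seedling libraries it was almost absent: the highest group mean was 0.114 CPM, in ago5 non-stem nuclei, and both populations of ago9, ago59 and the wild type were at 0.

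AT3TE91200 followed with 893 CPM and AT3TE43550 with 791 CPM, both on chromosome 3 and 46.6 and 69.1 times their sperm level. AT5TE67210 had 497 CPM and AT5TE39140 had 323 CPM. Below them lay AT3TE58730 with 228 CPM, AT1TE22850 with 192 CPM and AT1TE36035 with 161 CPM, the last at 120 times its sperm level. AT4TE74230 had 135 CPM, AT5TE39035 had 132 CPM, AT2TE23870 had 128 CPM and AT4TE04415 had 124 CPM, and the sperm level of AT4TE74230 was the closest to its vegetative level among these 12, at a ratio of 6.10. The first 12 rows together held 67.3% of the sum. Their family and neighbouring genes are not given in the table.

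Most rows were far scarcer than these. There were 13 rows at 100 CPM or more, holding 68.4% of the sum, 82 rows at 10 to 100 CPM with 23.3%, 61 rows at 5 to 10 CPM, 110 rows at 2 to 5 CPM and 75 rows under 2 CPM, the last with 1.04% of the sum. The median ratio of vegetative to sperm level was 39.0 in the most abundant class and 16.7 in the scarcest class. Nearly all rows were steady in the sense of presence: 336 had counts in all 15 libraries. The coefficient of variation over the 15 libraries had a median of 31.4%, with 11.3% at the lowest. It reached 219.5% in AT3TE27560.

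The ratio itself had a median of 22.3 and, among rows with any sperm count, a highest value of 427 in AT2TE08190, which rests on 1 sperm count. Sperm counts were 0 for 6 rows and at most 3 in sum for 27 rows, so the largest ratios are uncertain. Every vegetative library exceeded every sperm library for 297 rows. Among all features at the count minimum, 48% did so, and the choice of rows used that contrast. At the ratio threshold, AT3TE61500 (4.01), AT4TE64720 (4.01) and AT3TE92430 (4.05) lay just inside, and AT3TE53215 (3.97), AT1TE04985 (3.90) and AT1TE22695 (3.89) just outside. At the count threshold, AT1TE86120 (mean count 10.05), AT3TE66885 (10.13) and AT2TE23570 (10.21) lay just inside, and AT5TE57665 (9.97), AT1TE56290 (9.87) and AT4TE33080 (9.80) just outside.

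The chromosomes differed less in their share of TE rows chosen than in RNA. Chromosome 1 had 78 rows, chromosome 2 had 77, chromosome 3 had 71, chromosome 4 had 47 and chromosome 5 had 68, which was between 0.946% (chromosome 4) and 1.29% (chromosome 2) of each chromosome's TE rows. Chromosome 5 carried 50.1% of the summed level and chromosome 3 carried 23.6%, while chromosomes 1, 4 and 2 carried 9.33%, 9.14% and 7.87%. AT5TE35975 alone had 3742 of the 5464 CPM of chromosome 5. The other leading rows were AT3TE91200 (893 CPM), AT1TE22850 (192 CPM), AT4TE74230 (135 CPM) and AT2TE23870 (128 CPM). The median level of a row was 6.36 CPM on chromosome 5 and 6.23 CPM on chromosome 4, and 3.52 to 3.98 CPM on the other 3.

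**Figure D2:**
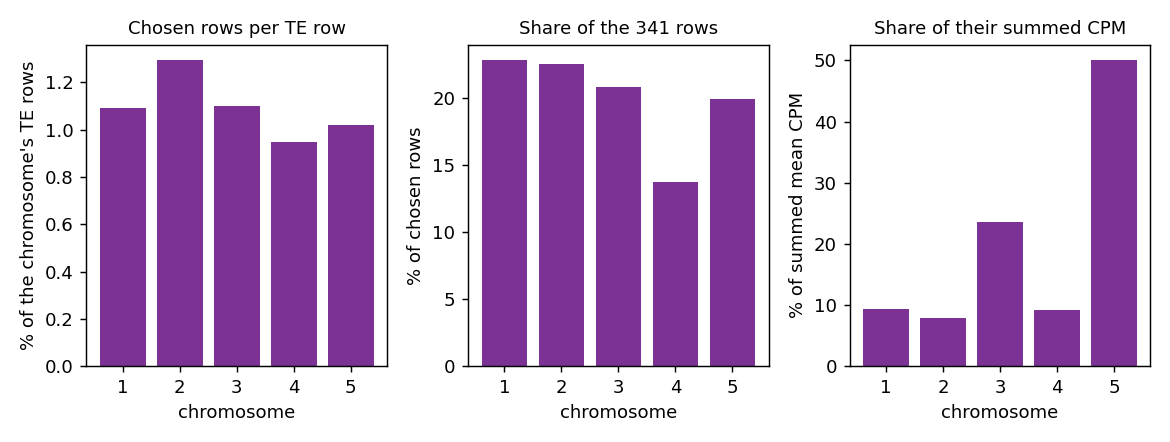
By chromosome: the chosen rows as a percent of the chromosome's TE rows (left), the share of the 341 rows (middle) and the share of their summed mean CPM in vegetative nuclei (right). The chosen rows are 0.946% to 1.29% of each chromosome's TE rows, while chromosome 5 holds 50.1% of the summed level.

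TE identifiers are numbered along each chromosome, so their order gives a rough place without coordinates. With the identifiers of each chromosome split into 3 equal parts, chromosome 1 had 34, 24 and 20 of the chosen rows, chromosome 2 had 31, 28 and 18, and chromosome 3 had 23, 27 and 21. Chromosome 4 had 7, 22 and 18, and chromosome 5 had 30, 17 and 21. Some adjacent identifiers were chosen together: 91 rows (26.7%) stood in 41 runs of more than 1, and the longest run was AT2TE41170 to AT2TE41185, 4 rows with 53.6 CPM in sum. For comparison, 94 of the chosen rows had a neighbour at the count minimum, chosen or not. The share of other TE rows in such runs was not computed. Over the 15 vegetative libraries, the 50 adjacent pairs had a median correlation of 0.577, against 0.416 over all pairs of chosen rows. The pairs share libraries and scaling, and reads may be split between them. The other 250 rows stood alone.

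The counts of these rows were often fractional, as estimated counts become when a read matches several places. Of their values above 0 in vegetative libraries, 49.9% were not whole, compared with 25.3% for other TE rows and 11.2% for gene rows. All values were whole for 103 rows, and more than 50% of values were not whole for 171. How reads were shared between copies is not given in the sources used here, so the level of 1 row can include reads of a related copy.

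The first comparison between genotypes asks whether the vegetative rows changed without AGO5, AGO9 or both. All 341 rows passed the filter on low counts in vegetative nuclei. The summed level was 10776, 11512 and 11685 CPM in ago5, 9543, 9599, 10564 and 11002 CPM in ago9, 10746, 10893, 13930 and 14341 CPM in ago59, and 9212, 9769, 10037 and 10056 CPM in wild type. Every ago5 and ago59 library lay above every wild-type library, and ago9 overlapped the wild type. This separation depended on the scale. With library sizes scaled by trimmed means (TMM), a choice made after seeing the data, the sums averaged 11036 ± 484 CPM in ago5 (n = 3), 10659 ± 796 CPM in ago9, 11027 ± 622 CPM in ago59 and 10826 ± 1371 CPM in wild type (SD, n = 4 each), so that all genotypes overlapped, and ago9 lay below the wild type instead of above it. The 2 highest ago59 libraries, replicates 1 and 4, also had the smallest share of counts on their 10 most abundant features (14.8% and 14.6%, against 16.0% to 18.7% in wild type), and the part of this in the raw sums was not tested. The tests used TMM scaling, so their fold changes are not ratios of the CPM printed beside them.

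In ago59 against wild-type vegetative nuclei, 12 of the 341 rows rose and 1 fell (edgeR quasi-likelihood test, adjusted p under 0.05 over all 8973 features). That is 3.52% and 0.293% of the rows, beside 0.869% (higher) and 0.825% (lower) of all features tested. The median log2 fold change was 0.19 over the 341 rows and 0.01 over all features, and 241 of the 341 were positive. The count minimum of 10 averaged in the mutant libraries. Without ago59, 15 of the 341 rows fell below it, with 5 without ago5, 2 without ago9 and 0 without wild type. The choice thus favours rows high in the mutants, and its part in the genotype medians was not tested. Of the other 313 TE rows tested, 0 were called, with a median of -0.06. In TMM-scaled CPM, every ago59 library was above every wild-type library for 39 rows (11.4%, beside 5.93% of all features) and below for 5 (1.47%, beside 5.48%), and in CPM of all rows for 65 (19.1%, beside 16.2%) and 1 (0.293%, beside 0.602%).

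The clearest of these was AT4TE10320 on chromosome 4, the 15th most abundant of the chosen rows. It had 96.6, 108, 162 and 169 CPM in ago59 against 57.1, 63.0, 63.3 and 72.2 CPM in wild type, a log2 fold change of 0.73 ± 0.11 (SE) with an adjusted p of 0.00695. The groups did not overlap, and ago5 (85.0 to 101 CPM) and ago9 (87.0 to 109 CPM) also lay above the wild type without being called. AT4TE21040 had 41.6, 45.1, 59.0 and 64.1 CPM in ago59 against 25.7, 27.6, 29.3 and 30.1 CPM in wild type (log2 0.57 ± 0.10, adjusted p = 0.0211). AT2TE41170, the first row of the run of 4, had 48.1, 55.9, 60.3 and 67.2 CPM in ago59 against 26.4, 28.1, 37.1 and 41.3 CPM in wild type (log2 0.50 ± 0.10, adjusted p = 0.0319).

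Among the called rows, the scarcer ones had larger fold changes. Their standard errors were also larger, so only a larger change could be called there. AT5TE44715 had 3.31, 4.63, 5.00 and 7.39 CPM in ago59 against 1.03, 1.30, 1.73 and 2.22 CPM in wild type (log2 1.38 ± 0.31, adjusted p = 0.0422). AT1TE58505 had 2.16, 3.39, 3.60 and 3.89 CPM in ago59 against 0.509, 0.680, 0.895 and 1.85 CPM in wild type (log2 1.39 ± 0.35, adjusted p = 0.0489). The groups did not overlap in either row. The adjacent pair AT3TE51105 and AT3TE51110 rose together, to 4.63 ± 0.561 CPM in ago59 against 1.80 ± 0.466 CPM in wild type for the first, and to 26.8 ± 3.03 CPM in ago59 against 14.6 ± 3.93 CPM in wild type for the second (SD, n = 4 each).

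The other 5 that rose were AT1TE57445 (29.5 ± 5.46 CPM in ago59, 15.7 ± 3.79 CPM in wild type), AT5TE25085 (69.0 ± 16.8 and 37.0 ± 8.05 CPM in the same order), AT2TE13000, AT1TE25125 and AT3TE54905. AT2TE13000 had 3.35 ± 0.157 CPM in ago59 against 1.33 ± 0.448 CPM in wild type (log2 1.03 ± 0.25, adjusted p = 0.0471). AT1TE25125 and AT3TE54905 had the smallest rises, at log2 0.48 ± 0.12 and 0.40 ± 0.10, and AT3TE54905 reached only 0.04996 in adjusted p. The 1 row that fell was AT3TE63845 (log2 -0.42 ± 0.08, adjusted p = 0.0257), with 36.3 ± 5.22 CPM in ago59 and 39.4 ± 6.15 CPM in wild type. Its values overlapped in CPM of all rows, which is not the scale of the test.

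**Figure D3:**
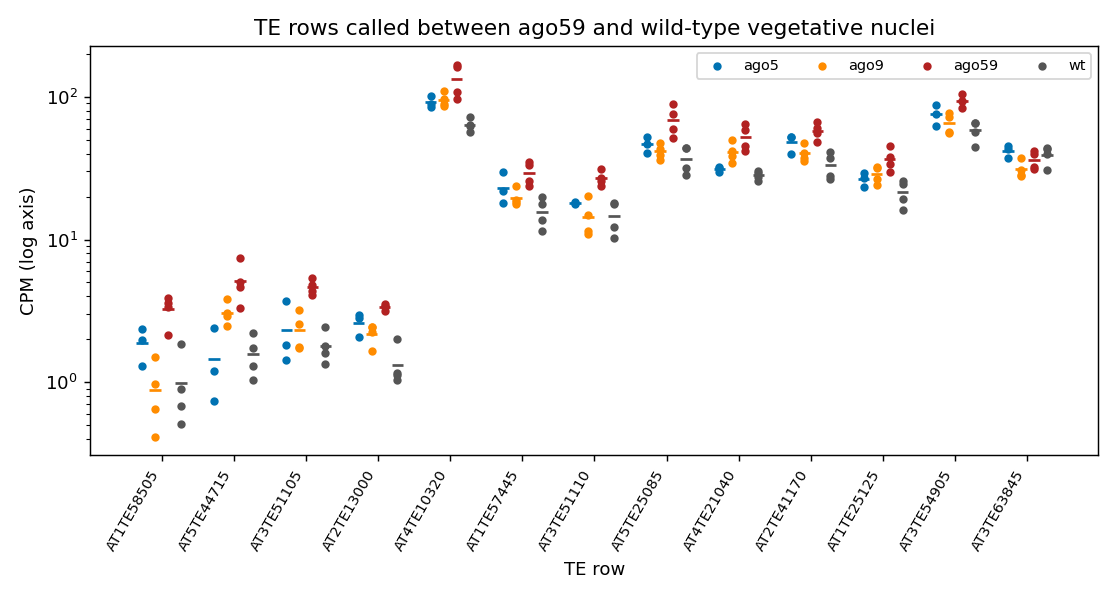
The 13 rows called between ago59 and wild-type vegetative nuclei, in CPM on a log axis, with each library as a point and the group mean as a line, for ago5, ago9, ago59 and wild type (wt). The ago59 points lie above the wild-type points in the first 12 rows from the left and overlap them in AT3TE63845, the row that fell.

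The number of calls depended on single libraries. It was 0 without wild-type replicate 2, 1 without wild-type replicate 3, 2 without wild-type replicate 1 and 3 to 7 without any 1 of the ago59 libraries. It was also 4 to 8 without ago5 replicate 2 or any 1 ago9 library, which enter through the shared spread, and 7 with RLE size factors. AT4TE10320 kept its call in 20 of 21 alternatives (adjusted p = 0.0539 without wild-type replicate 2), AT4TE21040 in 18 and AT3TE54905 in 5. The median log2 of the 341 rows stayed between 0.12 and 0.23 over the 15 fits that each left out 1 library. Of 7 vegetative-cell marker genes, 0 were called in ago59, but all 7 estimates were below 0 (-0.11 to -0.56), and the sperm gene HAP2 was lower (log2 -1.33, adjusted p = 0.0489). Against the same wild-type libraries, the 7 estimates ran from -0.33 to -0.07 in ago9 and from -0.42 to 0.05 in ago5. The part of these genes in the ago59 calls was not tested.

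In ago5 against wild-type vegetative nuclei, 0 of the 341 rows were called, beside 0.0111% of all features. The edgeR test gave 36 rows (10.6%) with an unadjusted p under 0.05, beside 11.4% of all features, and DESeq2 called 0 as well. The median log2 fold change was 0.11 over these rows and 0.03 over all features, with 232 of 341 positive. In TMM-scaled CPM, 28 rows (8.21%) had every ago5 library above every wild-type library, beside 5.67% of all features.

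**Figure D4:**
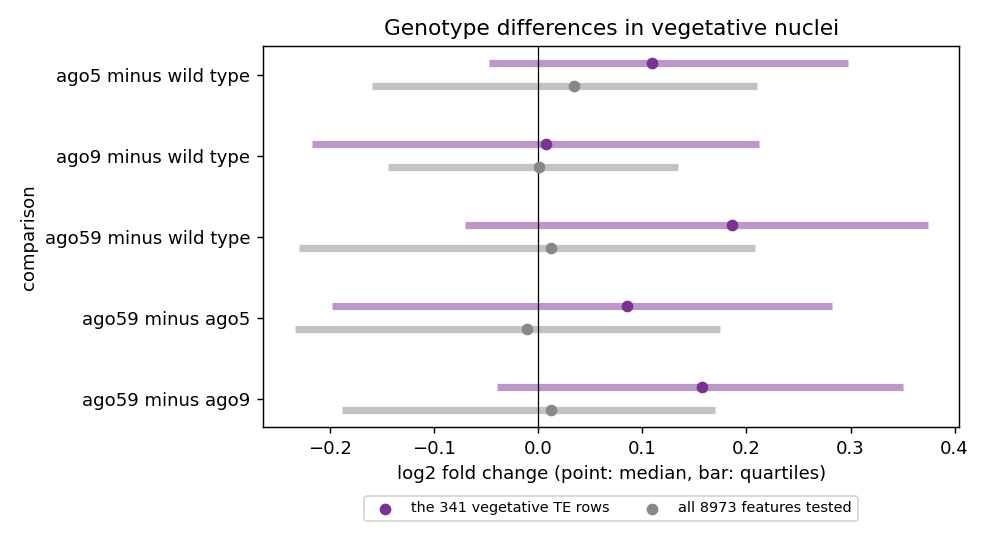
Median (point) and quartiles (bar) of the log2 fold change in vegetative nuclei over the 341 chosen TE rows (purple) and over all 8973 features tested (grey), for 5 comparisons. The purple medians are 0.11, 0.01, 0.19, 0.09 and 0.16 from top to bottom, beside grey medians of 0.03, 0.00, 0.01, -0.01 and 0.01.

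In ago9 against wild-type vegetative nuclei, 1 row rose and 4 fell, beside 0.0223% (higher) and 0.078% (lower) of all features. The median log2 fold change was 0.01, with 176 of 341 positive. The edgeR test gave 38 rows (11.1%) with an unadjusted p under 0.05, beside 5.92% of all features. In TMM-scaled CPM, every ago9 library was above every wild-type library for 19 rows (5.57%, beside 2.3% of all features). Every ago9 library was below for 11 (3.23%, beside 1.73%). The 1 row called higher was AT3TE58655 on chromosome 3, the 253rd in abundance, brought over the count minimum by the ago9 libraries themselves. It had 4.49, 5.71, 6.15 and 7.71 CPM in ago9 against 0.129, 0.460, 0.554 and 1.34 CPM in wild type, a log2 fold change of 3.11 ± 0.49 (adjusted p = 0.00904). The ago9 libraries stood apart from all others. The row had 0.461, 0.655 and 2.18 CPM in ago5, and 0.239, 0.491, 1.04 and 1.71 CPM in ago59, so the double mutant overlapped the wild type. The difference between ago59 and ago9 was itself called (log2 -3.03 ± 0.46, adjusted p = 0.00937).

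AT3TE58655 owed its place among the 341 rows to ago9: its mean count over the other 11 vegetative libraries was 7.18, under the minimum of 10. It was the only called row of which this was true when any 1 genotype was left out. The ago9 values that brought in AT3TE58655 also enter its vegetative tests, so its calls there are a description and no separate support. Its call in ago9 was lost in 1 of 21 alternatives (adjusted p = 0.0867 without wild-type replicate 2) and that between ago59 and ago9 in 1 of 20 (0.0808 without ago59 replicate 2). Among the rows with adjacent identifiers, AT3TE58650 had no count in vegetative libraries of any genotype and AT3TE58660 had 1 count in sum in ago9, 3 in ago59 and 0 in ago5 and in wild type.

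The seedlings, which the rule did not use, also had more of this row in ago9. In stem-cell nuclei it ran from 13.3 to 39.0 CPM in ago9 (median 30.7, n = 7) against 0.300 to 1.28 CPM in wild type (median 0.469, n = 5), and in non-stem nuclei from 12.9 to 56.2 CPM in ago9 (median 48.6, n = 4) against 0 to 1.40 CPM in wild type (median 0.304, n = 3). The ranges did not overlap in either population. In ago5 the row had 0 to 9.20 CPM in stem-cell nuclei (median 1.23, n = 8) and 0 to 4.34 CPM in non-stem nuclei (n = 3), below every ago9 library. Fitted on all 40 seedling libraries, a test added after seeing the data, AT3TE58655 rose in ago9 stem-cell nuclei (log2 5.10 ± 1.03, adjusted p = 0.00424, beside 0.255% of all features called higher) and in ago9 non-stem nuclei (log2 6.26 ± 1.42, adjusted p = 0.0324, beside 0.0819%).

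The double mutant again lay near the wild type. The sources used here do not say whether ago59 was made from the same ago9 line, so loss of AGO9 and another difference of the ago9 line cannot be told apart for this row. AT3TE58655 had 0 to 1.70 CPM in ago59 stem-cell nuclei (n = 7) and 0 to 0.855 CPM in ago59 non-stem nuclei (n = 3), and it fell in ago59 relative to ago9 in both (log2 -5.55 ± 0.91, adjusted p = 0.000174, and -7.09 ± 1.51, adjusted p = 0.0218). Shares of all features called lower were 0.294% and 0.125%. The stem-cell calls held in the 22 alternatives that gave an adjusted p, and DESeq2 gave none for them. In non-stem nuclei, leaving out ago9 replicate 1, 2 or 4 or any wild-type library ended the ago9 call (adjusted p 0.0673 to 0.314), and leaving out ago9 replicate 2 or any ago59 library ended the call between ago59 and ago9 (0.0515 to 0.212). The 2 leaf markers, another measure of the tissue, summed to 12136 CPM in ago9, 10616 CPM in ago59 and 23093 CPM in wild-type stem-cell nuclei. In sperm the row had 0.341 ± 0.195 CPM in ago9, 0.298 ± 0.108 CPM in ago59 and 0.0797 ± 0.138 CPM in wild type (SD, n = 3 each).

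**Figure D5:**
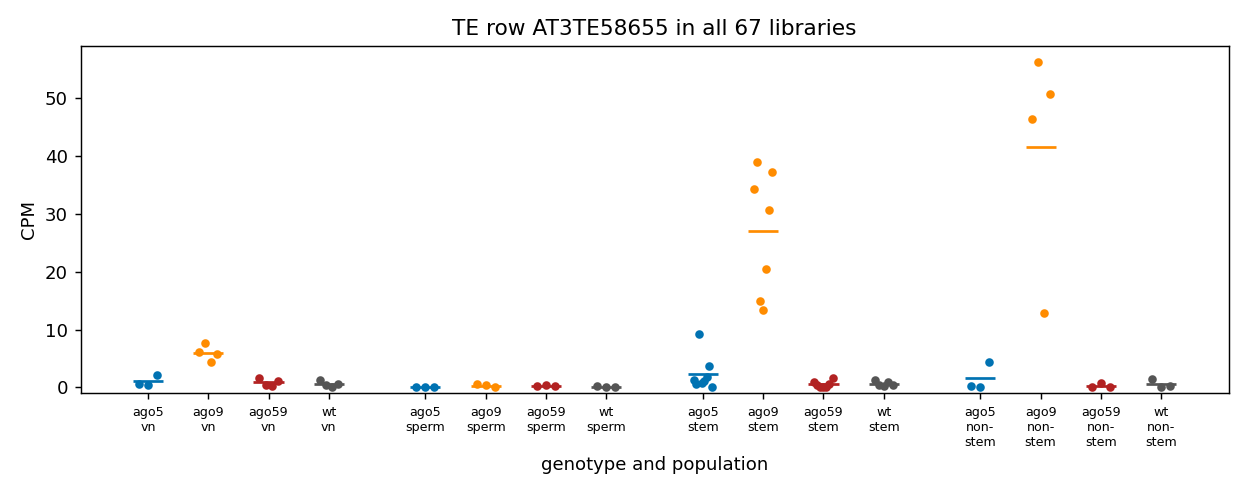
CPM of AT3TE58655 in each of the 67 libraries (points, with group means as lines), by genotype (ago5, ago9, ago59, wt) in vegetative nuclei (vn), sperm, stem-cell (stem) and non-stem nuclei. Only the ago9 groups of vegetative, stem-cell and non-stem nuclei have all their libraries above 4 CPM.

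In CPM of all rows, the 4 rows that fell in ago9 vegetative nuclei had values that overlapped the wild type. The tests used TMM scaling, so this overlap does not describe the values tested. AT3TE80270 had 2.88, 2.92, 3.41 and 4.65 CPM in ago9 against 3.55, 7.24, 9.28 and 9.59 CPM in wild type (log2 -1.14 ± 0.21, adjusted p = 0.0338). AT2TE24525 had 10.3, 11.5, 13.4 and 15.5 CPM in ago9 against 14.7, 20.4, 21.4 and 24.1 CPM in wild type (log2 -0.73 ± 0.14, adjusted p = 0.0489). AT1TE54655 and AT3TE63845 fell by 0.46 ± 0.09 and 0.40 ± 0.08 on the log2 scale. Wild-type replicate 1 was the lowest wild-type library in all 4 rows, again in CPM of all rows. TMM scaling raised the summed level of the chosen rows in this library from 9212 to 12735 CPM. Its low place therefore does not describe the values tested. AT3TE63845 was the 1 row also called in ago59, lower in both, and the comparisons share their wild-type libraries. The number of rows called in ago9 was 0 without wild-type replicate 2, 1 without wild-type replicate 3, ago5 replicate 2 or ago9 replicate 2, 3 or 4, and 2 without ago9 replicate 1. It was 3 without wild-type replicate 1 or 4, ago5 replicate 1 or ago59 replicate 2, and 13 by DESeq2.

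Between the double mutant and ago5, 4 rows were higher and 2 lower in ago59 vegetative nuclei, beside 0.223% and 0.613% of all features. AT4TE21040 (log2 0.60 ± 0.11) and AT5TE44715 (1.65 ± 0.35) were called here as well as against the wild type. AT5TE86440 had 38.0, 43.8, 54.2 and 58.4 CPM in ago59 against 29.0, 30.1 and 30.5 CPM in ago5 (log2 0.56 ± 0.11, adjusted p = 0.0233), and AT2TE17485 had 6.97, 9.32, 10.8 and 16.8 CPM in ago59 against 4.81, 4.91 and 4.99 CPM in ago5 (log2 1.00 ± 0.22, adjusted p = 0.0344). The ago5 values of both rows were tight and lay below all ago59 values.

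AT3TE10670 was lower in ago59, with 4.51, 8.08, 10.6 and 10.9 CPM against 13.6, 25.0 and 27.4 CPM in ago5 (log2 -1.51 ± 0.26, adjusted p = 0.0157). Its wild-type libraries had 5.45 to 15.1 CPM and its ago9 libraries 5.41 to 9.41 CPM, so the lowest ago5 library lay within the wild-type range and the other 2 lay above it. AT3TE80270 was also lower in ago59 than in ago5 (log2 -0.89 ± 0.21, adjusted p = 0.0435). The number of calls between ago59 and ago5 was 0 without ago5 replicate 4, the library that stood apart in its other TE rows. It was 1 without ago5 replicate 2 and 13 without ago5 replicate 1. It was 2 to 3 without any 1 ago59 library. Between ago59 and ago9, AT3TE58655 was the 1 row called lower and 0 were called higher, beside 0.0111% of all features in each direction. That count was 0 without ago59 replicate 2 and by DESeq2, which gave AT3TE58655 no adjusted p, and 2 without ago5 replicate 2 or ago9 replicate 2. The median log2 fold change between ago59 and ago9 was 0.16 over the 341 rows and 0.01 over all features, with 73 rows (21.4%) at an unadjusted p under 0.05, beside 12.3% of all features.

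The silencing machinery was measured beside the TE rows. DDM1, the chromatin remodeller that keeps TEs silent, had 65.5 CPM in vegetative and 717 CPM in sperm libraries, and MET1, the maintenance methyltransferase for CG sites, had 12.4 CPM and 858 CPM in the same order. DME, the demethylase, had 1.27 CPM in vegetative and 0.203 CPM in sperm libraries, and DCL3, which cuts small RNAs, had 2.28 and 0.787 CPM. Of the 26 listed silencing genes, 19 had a lower and 7 a higher mean in vegetative than in sperm libraries, a description with no test. The vegetative range lay wholly below the sperm range for 9 and wholly above it for 0. The share of all features wholly below was not computed, so the count of 9 has no background and is no result about these genes. In the other direction, 48% of features at the vegetative count minimum lay wholly above, a filter not applied to the listed genes. Some listed genes were near 0 in both groups, such as CMT2 (0.098 CPM in vegetative, 0.081 CPM in sperm libraries) and SGS3 (0.0156 and 0.00996 CPM in the same order). The direction of such genes is uncertain. Only 6 of the 26 passed the filter in vegetative nuclei. None of these 6 was called in any of the 5 vegetative comparisons, with an unadjusted p under 0.05 for 1 gene in ago5 and 1 in ago59 against the wild type and 1 between ago59 and ago5.

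In sperm, 83 of the 341 rows passed the filter on low counts, and their genotype comparisons gave 0 calls in ago5 (beside 0.0312% of all features), 1 in ago9 (beside 3.37%) and 0 in ago59 (beside 0.145%). With the edgeR test, an unadjusted p under 0.05 was found for 5 rows in ago5 (6.02%, beside 4.49% of all features), 11 in ago9 (13.3%, beside 17.5%) and 12 in ago59 (14.5%, beside 7.68%), and DESeq2 called 0 in ago5, 1 in ago9 and 0 in ago59. The 1 row called was the most abundant one, AT5TE35975, with 229, 240 and 344 CPM in ago9 sperm against 141, 199 and 199.9 CPM in wild-type sperm (log2 0.78 ± 0.15, adjusted p = 0.0148). The groups did not overlap. The 7 vegetative-cell markers summed to 10761 ± 739 CPM in ago9 sperm and 7427 ± 450 CPM in wild-type sperm (SD, n = 3 each), nearly all of it VGD1 (10119 and 6865 CPM in the same order). The means of 6 markers were higher in ago9 sperm and that of MYB120 was lower, 0 of the 6 that could be tested were called (adjusted p 0.0562 to 0.518), and the part of vegetative RNA in the result was not tested. The call was lost without ago9 replicate 1 or 3 or wild-type replicate 1 or 3, and 2 rows were called without wild-type replicate 2.

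In seedlings most of the 341 rows were silent or nearly so. There were 21 rows with no count in any of 40 libraries and 247 with a mean under 1 CPM in both populations. The rows summed to 967 ± 146 CPM in stem-cell nuclei (n = 27) and 982 ± 183 CPM in non-stem nuclei (n = 13), which is 7.51% and 8.69% of TE counts there. Library protocols differed between seedlings and pollen, so the tissues are set side by side with no test. For 34 rows a seedling mean exceeded the vegetative mean. The largest was AT5TE40480, with 73.8 CPM in stem-cell and 147 CPM in non-stem nuclei beside 18.5 CPM in vegetative nuclei. The non-stem libraries had 37.3 to 119 CPM in ago5, 30.1 to 127 CPM in ago9, 15.7 to 39.1 CPM in ago59 and 72.7, 388 and 856 CPM in wild type. The non-stem mean was 87.7 CPM without wild-type replicate 4. AT2TE45280 had 52.0 and 64.6 CPM beside 4.28 CPM, and its neighbour AT2TE45275 had 33.4 and 33.0 CPM beside 2.16 CPM, in the same order.

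Of the 80 rows that could be tested between stem-cell and non-stem nuclei, averaged over genotypes, 4 were higher in stem-cell nuclei and 0 lower, beside 4.06% and 2.87% of 20753 features, so the share was near the background. AT1TE37495 had 15.96 ± 8.59 CPM in stem-cell and 3.08 ± 3.51 CPM in non-stem nuclei (log2 2.42 ± 0.47, adjusted p = 0.000507). AT3TE43550, the third most abundant vegetative row, had 42.3 ± 17.2 CPM in stem-cell and 24.4 ± 16.0 CPM in non-stem nuclei (log2 1.03 ± 0.24, adjusted p = 0.0031). AT1TE41070 had 11.8 ± 5.20 and 4.93 ± 2.70 CPM (log2 1.39 ± 0.36), and AT3TE65875 had 17.0 ± 8.94 and 8.71 ± 5.34 CPM (log2 1.04 ± 0.31), in the same order. The libraries of both populations overlapped in all 4 rows (SD, n = 27 and 13). The call of AT3TE65875 was lost without any 1 of 7 non-stem libraries (adjusted p 0.0505 to 0.0721): ago59 replicate 1 or 2, ago5 replicate 1 or 4, ago9 replicate 1, or wild-type replicate 2 or 3.

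In the wild type alone, AT3TE43550 had 29.3 to 74.5 CPM in stem-cell nuclei (median 45.4, n = 5) and 5.29 to 10.6 CPM in non-stem nuclei (median 10.3, n = 3). These ranges were separate. In ago9 they were 19.5 to 63.1 CPM in stem-cell nuclei (n = 7) and 9.80 to 47.9 CPM in non-stem nuclei (n = 4), which overlapped. Whether genotype altered this difference was not tested.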

How the data were processed

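The authors deposited 1 table of expected counts (estimated, so not always whole) for 67 libraries (60886 features, of which 31189 are TE rows), with 0 columns left out. TAIR10 and DESeq2 are named in the submitters' processing notes with no role, and the aligner, counter and handling of multiple matches are not given in the sources used here. Per the labels' protocols, pollen RNA (2 ng) entered Smart-seq2 and seedling nuclei Smart-seq3. The 7 wild-type pollen columns carry the number 21 where the others name the genotype and were matched to the samples left over. That a row is a TE, and its chromosome, were read from the identifier, since the reference annotation used here (TAIR10.1) holds no TE identifiers. No transposon class, family, coordinates or sequences are given.

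CPM was computed over all rows. Counts were rounded and tested with edgeR 4.0.16 in R 4.3.3 (TMM, filterByExpr with minimum count 10 and minimum total 15, quasi-likelihood F test, Benjamini-Hochberg over all features, adjusted p under 0.05), on all 15 vegetative (8973 features), 12 sperm (9623) or 40 seedling libraries (20753), without a replicate block. Each standard error was the size of the log2 fold change over the root of F. The fit was first tested on simulated counts. Alternatives were RLE size factors, no filter, DESeq2 1.42.0, counts not rounded, the replicate block, only the groups compared, other thresholds for the rows, and leaving out each library. TMM-scaled CPM and the seedling tests of AT3TE58655 were added after seeing the data.

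The rows and gene lists were chosen with earlier results of these data known. The rows named are the 12 most abundant, those called in any of 9 comparisons, the leading row of each chromosome, those at the thresholds, AGO5, AGO9 and the silencing and marker genes. AT2TE08190, AT3TE27560, AT5TE40480, AT2TE45280, AT2TE45275, AT3TE58650 and AT3TE58660 were named after their values were seen.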

Additional observations from a re-analysis of the deposited data

Results flagged for a closer look

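Of 121 groups of 4 to 10 libraries checked over the named rows, 1 held a library far from the others. AT2TE13000 had 1.99 CPM in wild-type vegetative replicate 4, against 1.04, 1.12 and 1.16 CPM in the other 3. Chance flags about 1 group in 20. AT2TE13000 was called higher in ago59, where its 4 libraries had 3.14 to 3.51 CPM, all above that value.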

How the results depend on the processing

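With no filter on low counts, the rows called in vegetative nuclei numbered 3 in ago5, 12 in ago9 and 21 in ago59 against the wild type, 13 between ago59 and ago5 and 14 between ago59 and ago9, in sperm 3 in each mutant, and 14 between stem-cell and non-stem nuclei. DESeq2 called 13 in ago9, 0 between ago59 and ago9 and 7 between stem-cell and non-stem nuclei. RLE size factors gave 7 in ago59. Unrounded counts gave 3 in ago9. Fits of only the groups compared gave 1 between ago59 and ago5 and 3 between ago59 and ago9, and wild-type seedlings alone gave 1. With the replicate number as a block, ago9 had 3 calls, ago59 had 7 and stem-cell nuclei 1. Whether equal numbers mark a shared batch was not settled. Same-numbered libraries correlated over 0.1 in 2 of 3 pairs of ago5 and wild-type vegetative nuclei. The same held for 1 of 3 pairs of ago9 and wild-type sperm, and for 0 pairs elsewhere. Leaving out 1 library at a time gave 0 to 0 calls in ago5, 0 to 5 in ago9 and 0 to 16 in ago59 vegetative nuclei against the wild type, 0 to 13 between ago59 and ago5, 0 to 2 between ago59 and ago9, 0 to 0, 0 to 2 and 0 to 0 in ago5, ago9 and ago59 sperm, and 3 to 6 in seedlings, where libraries of groups of up to 5 were left out. The cause was not tested. Over 633 alternatives for 30 called differences, 392 kept the call, 241 lost it and 0 turned round. A mean count of at least 30 left 196 rows, a ratio of at least 8 left 280, and the wild type alone gave 300 (289 shared). Without AT5TE35975 the rows held 45.2% of vegetative TE counts. TMM scaling turned the summed ago9 minus wild-type level to -167.8 CPM, against 408 CPM in CPM of all rows. Depth limits the 75 rows under 2 CPM and the ratios resting on few sperm counts.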
